A study of Rattus norvegicus with 9 samples.

Results

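A set of 46 genes, 0.377% of the 12192 genes tested, stood lower in both LPS and extract cells than in control cells. The genes were chosen by their values. Each averaged 1 TPM or more across all 9 libraries (TPM expresses a gene as its part of 1000000 transcripts) and lay at least 1 lower on the log2(TPM + 1) scale in LPS and in extract cells than in control. In each, all 3 control values exceeded all 6 others, and LPS and extract means differed by less than 1. Levels and differences from control below are therefore descriptions of the choice and carry no test.

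All libraries came from HBZY-1, an established rat line of mesangial cells from the glomerulus, with 3 libraries described by the series as biological replicates in each of 3 groups. The first is labelled control, without a statement that nothing was added, the second is an LPS-induced model, and the third received a high-dose water extract of Poecilobdella manillensis, a blood-feeding leech, made from lyophilized powder. The labels give no dose, no exposure time and no passage, and do not say whether the extract group also received LPS. The series asks whether the leech powder lessens inflammatory injury. The deposited TPM tables keep no record of read depth, so the depth behind each value is unknown and precision rests on the spread of 3 libraries.

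Mesangial cells hold together the capillary loops of the kidney's filtering tuft, contract like smooth muscle and lay down matrix. LPS, a lipid of the bacterial outer membrane, is sensed through Toll-like receptor 4, which switches on NF-kB and interferon-linked genes, while other genes are repressed. Leech secretions are known for proteins that block clotting and inhibit proteases. The files name genes by Ensembl identifier only and none of the 46 could be paired with a symbol here, so what these genes encode, and the mesangial and other cell type markers, were not analysed here. Apart from 2 identifiers, genes are called by their rank in mean control TPM, from 1 (highest) to 46.

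The 46 genes spanned a wide range of levels. Their mean control level ran from 2.65 to 477 TPM with a median of 12.04 TPM, against a median of 20.04 TPM over all tested genes. Control means reached 100 TPM in 4 of them and 20 TPM in 15, and 39 stood at 5 TPM or more. The median of the 46 means was 3.76 TPM with LPS and 3.71 TPM with extract, and 5 genes had a mean under 1 TPM in each of these groups. Summed over the 46 genes, the TPM was 1590.6, 1543.2 and 1579.2 in the control libraries. The sum was 573.2, 568.3 and 557.3 in the LPS libraries and 563.3, 574.4 and 570.2 in the extract libraries. The LPS and extract sums overlapped and both lay far below the control sums. In bulk RNA, fewer cells expressing a gene and less of its RNA per cell cannot be told apart. Rank 1 made up 30.4% of the control sum and the 3 highest genes 48.7%.

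**Figure D1:**
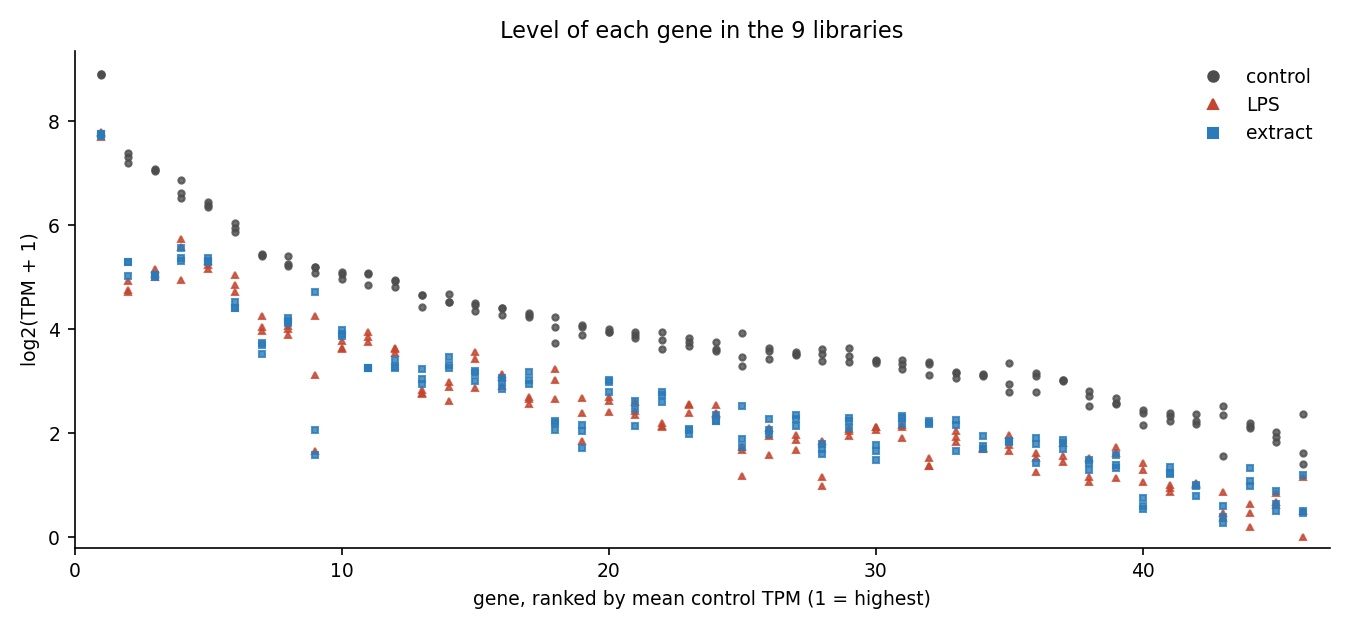
Level of each of the 46 genes on the log2(TPM + 1) scale (vertical axis) against its rank in mean control TPM (horizontal axis), with 1 point per library and circles for control, triangles for LPS and squares for extract. All control points lie above the other 6 of the same gene, as the rule requires, and the gap is narrowest at ranks 46 and 9.

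As a share of control, the LPS means lay between 10.8% and 46.6% with a median of 29.7%. The extract means lay between 9.61% and 47.1% with a median of 32.8%. On the log2(TPM + 1) scale the LPS minus control difference ran from -2.50 to -1.03 (median -1.37) and the extract minus control difference from -2.37 to -1.01 (median -1.31). Over all tested genes the medians were -0.08 and -0.04. Of the 46, 22 lay between -1.5 and -1 in both comparisons, and 7 lay at or below -1.5 in both. Both comparisons use the same 3 control libraries, so a chance high value in control lowers both differences.

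Among all tested genes, 1.70% lay at or below -1 with LPS and 2.31% with extract, relative to control, and in 14.8% all 3 control values exceeded the other 6. A linear model over all tested genes (limma, adjusted p below 0.05) called 30.9% of them lower in LPS than in control and 29.4% lower in extract than in control. The LPS share depended on the scaling of the libraries: 1193 genes were called higher and 3769 lower on the deposited values, 2117 and 2264 once libraries were rescaled by the median of ratios, and 1940 and 2402 after quantile normalization. For extract against control the same 3 scalings gave 2716 and 3582, 3247 and 3020, and 3133 and 3141. With TPM as deposited, the model called 45 of the 46 genes lower with LPS and 46 lower with extract. The rule used both contrasts, so these counts describe the choice. The gene not called in LPS versus control was that of rank 9.

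**Figure D2:**
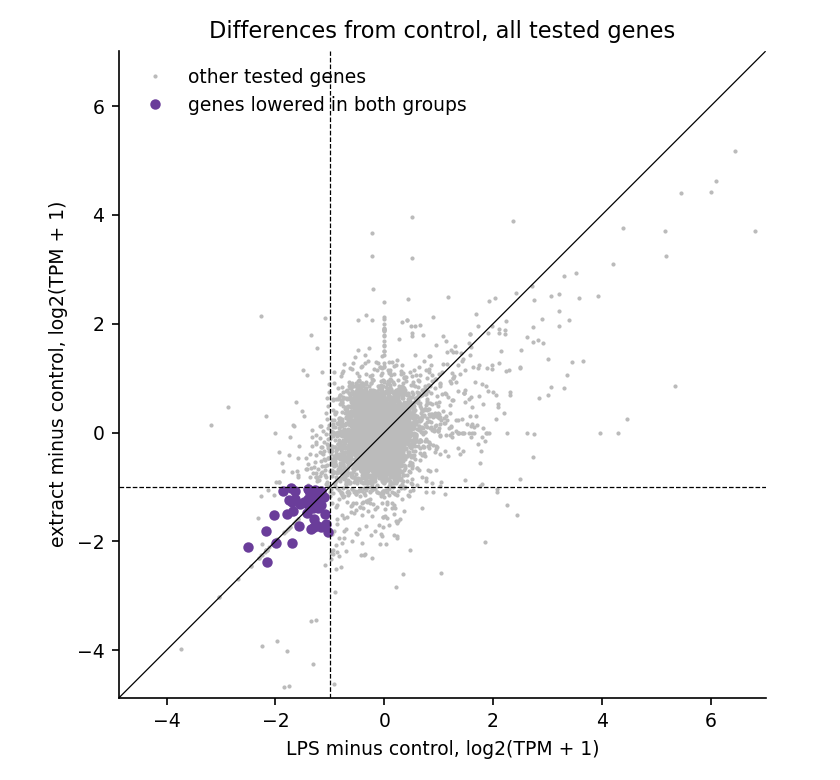
LPS minus control (horizontal) and extract minus control (vertical) on the log2(TPM + 1) scale for all 12192 tested genes in grey and the 46 genes in purple. Dashed lines mark -1 on each axis and the solid diagonal marks equal differences. The 46 genes lie in the lower left corner, within 1 of the diagonal, and the lowest reaches -2.50 in LPS cells.

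The highest gene, ENSRNOG00000010747, had 472.6, 479.78 and 478.27 TPM in the control libraries. It had 220.8, 205.2 and 217.69 TPM in the LPS libraries and 214.43, 208.84 and 214.55 TPM in the extract libraries. All 3 groups were tight, and the LPS and extract values overlapped. Its mean fell from 477 ± 3.79 TPM (SD, n = 3) in control to 215 ± 8.26 TPM with LPS and 213 ± 3.26 TPM with extract. The log2 differences from control were -1.15 and -1.16, each with a standard error of 0.033, and extract minus LPS was -0.01. Standard errors here and below are moderated ones from the limma fit. They pool the spread of all 3 groups and draw it towards that of genes at similar levels.

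The deepest mean difference belonged to ENSRNOG00000039902, rank 2. Its control libraries had 167.66, 145.18 and 157.01 TPM. LPS libraries had 25.99, 29.32 and 25.16 TPM, and extract libraries had 38.24, 31.55 and 38.04 TPM. The lowest control value was 3.797 times the highest other value, the widest such gap among the 46 genes. Its mean was 157 ± 11.2 TPM (SD, n = 3) in control, 26.8 ± 2.20 TPM with LPS and 35.9 ± 3.81 TPM with extract. That is 5.84-fold lower in LPS and 4.36-fold lower in extract cells, with log2 differences of -2.50 and -2.10 (standard error 0.086). All 3 extract values lay above all 3 LPS values.

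After rank 2, the lowest mean differences over the 2 comparisons were those of rank 9 at -2.26, rank 3 at -2.001, rank 28 at -1.996 and rank 19 at -1.87. Rank 28 had 9.51, 11.25 and 10.52 TPM in control. It had 1.23, 2.59 and 0.99 TPM in LPS libraries and 2.48, 2.24 and 2.04 TPM in extract libraries. Its LPS values spread on both sides of its extract values. The lowest percentages of control came from low genes. The gene of rank 44 fell from 3.60, 3.39 and 3.31 TPM in control to 0.39, 0.15 and 0.57 TPM in LPS cells, 9.28-fold lower in the mean, and to 0.98, 1.13 and 1.51 TPM in extract cells, 2.85-fold lower. Rank 43 stood at 1.94, 4.74 and 4.14 TPM in control, at 0.30, 0.39 and 0.84 TPM in LPS cells and at 0.52, 0.31 and 0.21 TPM in extract cells, a mean 10.4-fold lower in extract than in control. At such levels the log2(TPM + 1) scale understates the ratio: the same differences were -1.71 for rank 44 in LPS and -1.72 for rank 43 in extract cells.

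Not every gene was even across replicates. The gene of rank 9 had 35.73, 32.76 and 35.8 TPM in control, but 7.69, 18.09 and 2.18 TPM with LPS and 3.17, 25.3 and 2.0 TPM with extract. Replicate 2 was the highest library in both lowered groups, at 25.3 TPM in extract cells against 2.0 in replicate 3. Its coefficient of variation (CV, the SD as a percent of the mean) was 4.99% in control, 86.7% with LPS and 129% with extract, and the standard error of its log2 difference, 0.81, was the largest of the 46. The lowest gene by control level, rank 46, had 4.21, 2.08 and 1.67 TPM in control, 1.24, 0.00 and 0.42 TPM with LPS, and 0.38, 0.42 and 1.3 TPM with extract. Its lowest control value was 1.28 times its highest other value, the narrowest gap of the set, and it was the only one of the 46 listed at 0 in any library. In all, 27 of the 46 genes had a CV of at most 20% in all 3 groups. A CV over 20% occurred for 4 genes in control, 16 with LPS and 11 with extract. The median CV of the 46 genes was 6.46% in control, 11.4% with LPS and 9.47% with extract, against 5.17%, 5.80% and 4.67% over all tested genes. The 46 genes' lower TPM in the 2 lowered groups moves with their higher CV there, and its part in the CV was not tested.

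**Figure D3:**
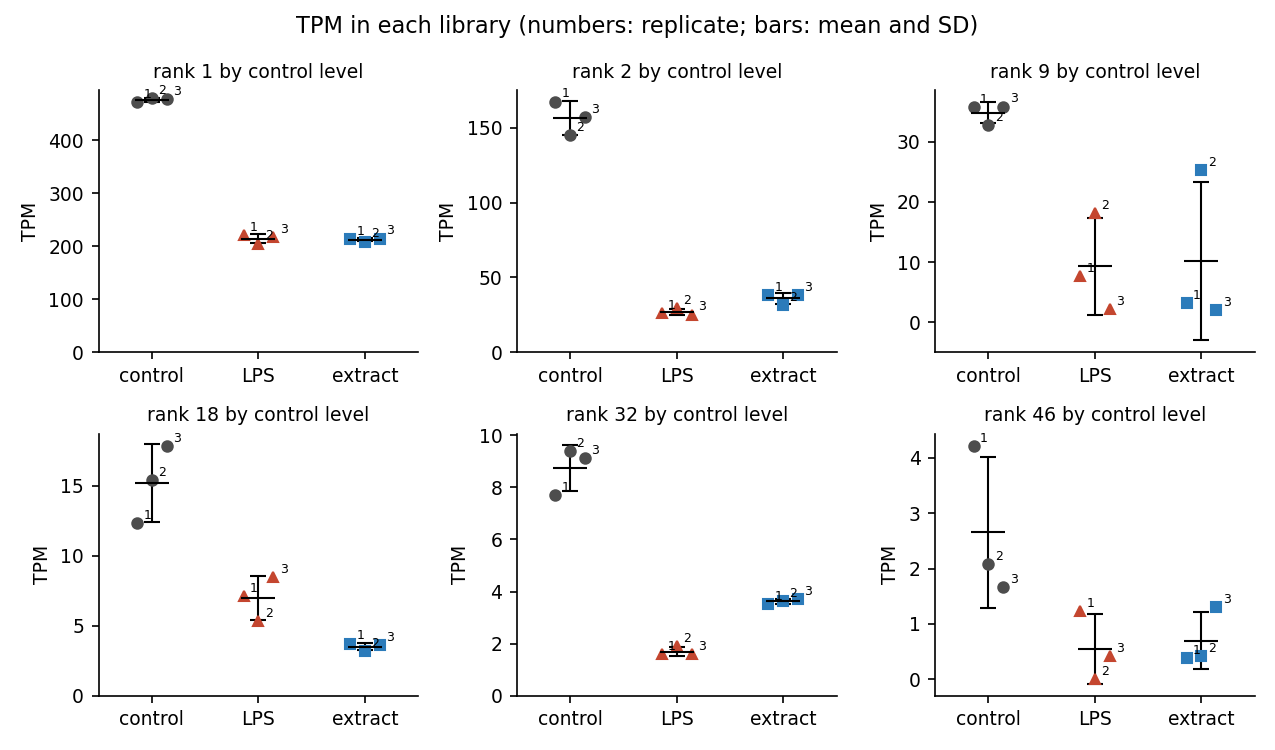
TPM (vertical axis, from 0 or below) in each library of the genes of rank 1, 2, 9, 18, 32 and 46, with the replicate number beside each point and black bars for the mean and SD of 3 libraries. Replicate 2 of the rank 9 gene stands at 18.09 TPM with LPS and 25.3 TPM with extract, above its other libraries there, while ranks 1 and 2 are tight in every group.

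For each library, the median deviation of the 46 genes from their own group mean lay between -0.05 (LPS replicate 2) and 0.03 (LPS replicate 1) on the log2(TPM + 1) scale. Over all tested genes LPS replicate 2 also had the lowest median deviation, -0.03. It was the lowest LPS library for 24 of the 46 genes and for 47.7% of all tested genes.

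Within the limit set by the rule, the extract level was above the LPS level for some of the genes and below it for others. The extract mean was higher than the LPS mean for 25 genes and lower for 21, with a median difference of 0.08 and a range from -0.80 to 0.78 on the log2(TPM + 1) scale. All 3 extract values lay above all 3 LPS values in 14 genes and below them in 9, and the values overlapped in 23. Among all tested genes the first pattern held for 37.3% and the second for 27.8%. The limma fit called 12 of the 46 higher and 8 lower with extract than with LPS, where 34.4% and 25.0% of all tested genes were called. The rule bounds this contrast, so nothing is read from these shares. The extract minus LPS difference was under 0.1 in size for 12 genes and over 0.5 for 8, 5 higher and 3 lower in extract cells.

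The genes at the ends of that range showed clean separations. Rank 32 had 7.72, 9.40 and 9.12 TPM in control, 1.59, 1.89 and 1.60 TPM with LPS and 3.53, 3.62 and 3.72 TPM with extract. It was 5.17-fold below control with LPS and 2.41-fold below with extract, an extract minus LPS difference of 0.78. Ranks 44 and 22 followed, with differences of 0.69 and 0.56. At the other end, the gene of rank 18 had 12.31, 15.41 and 17.85 TPM in control, 7.10, 5.31 and 8.46 TPM with LPS and 3.72, 3.21 and 3.60 TPM with extract. The 3 groups of this gene did not overlap, and extract minus LPS was -0.80. Rank 40 followed at -0.62 and rank 11 at -0.59. Rank 11 stood at 8.51, 8.54 and 8.55 TPM in the extract libraries, below 14.34, 12.45 and 13.37 TPM in LPS and 33.02, 27.77 and 32.27 TPM in control.

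**Figure D4:**
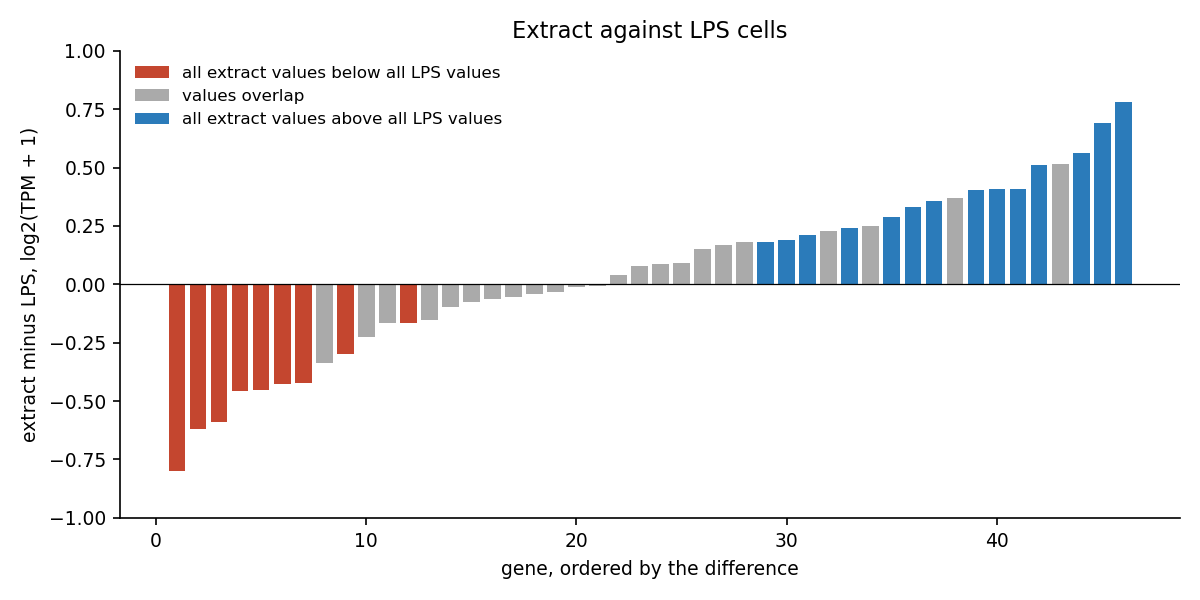
Extract minus LPS difference on the log2(TPM + 1) scale (vertical axis) of the 46 genes in order of that difference (horizontal axis). Blue bars mark the 14 genes with all extract values above all LPS values, red bars the 9 with all below, and grey bars the 23 whose values overlap. The difference runs from -0.80 to 0.78.

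The edges of the set were not sharp. The 3 genes nearest inside the threshold, judged by the smaller of their 2 differences, were rank 44 at -1.01, rank 18 at -1.03 and rank 20 at -1.04. The 3 nearest outside, which met the other conditions, had smaller differences of -0.998, -0.995 and -0.979, with control means of 54.2, 289 and 4.82 TPM. Both differences were at or below -1 in 105 tested genes. Of these, 51 were left out because a control value did not exceed all others, and 47 of the 51 were listed at 0 TPM in at least 1 control library, 30 of them in 2 of the 3. None of the 46 genes could be listed at 0 in a control library, because the rule needs each control value to exceed all others. A further 8 were left out because extract and LPS differed by 1 or more, with extract the lower in 7 and the higher in 1.

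The transcript table showed which transcripts carried the lowered levels. All 46 genes could be linked to runs of transcripts whose TPM summed to the gene's. A single transcript above 0 TPM accounted for 24 of the genes, where 40.9% of all linked genes had only 1. Main transcripts were those holding at least 10% of the gene's mean TPM over all 9 libraries, in which control weighs most for these genes. By that share, 34 genes had 1 main transcript, and 12 genes had 2 or more (37.5% of all linked genes did). Within 1 group, another transcript of the 34 genes could exceed 10%. Such a transcript held 16.9% with LPS in rank 21, and 14.7% and 36.8% with extract in ranks 35 and 45. These 12 genes had 27 main transcripts, and the mean of every one of the 27 was lower in both LPS and extract cells than in control. In 26 of the 27, all 3 control values exceeded the other 6, and 19 met the rule used for genes. The 27 transcripts are parts of genes chosen for such falls, and the 9-library share favours transcripts high in control. These counts therefore largely follow from the choice and carry no test. A transcript that rose could be left out. In rank 43, such a transcript had a mean of 0.02 TPM in control and 0.28 TPM with extract, 79.8% of the gene there.

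The highest gene had a pair of main transcripts. Its first transcript had 276.59, 281.02 and 287.43 TPM in control, 133.98, 122.92 and 134.92 TPM with LPS and 127.8, 119.71 and 125.6 TPM with extract. Its second had 196.01, 198.76 and 190.84 TPM in control, 86.82, 82.28 and 82.76 TPM with LPS and 86.63, 89.13 and 88.95 TPM with extract. The first transcript held 59.1% of the gene's TPM in control, 60.9% with LPS and 58.5% with extract.

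The gene of rank 19 was uneven. Its main transcript had 9.71, 11.18 and 10.66 TPM in control, 1.67, 2.07 and 1.27 TPM with LPS and 0.88, 1.28 and 1.3 TPM with extract. Its second had 1.69, 2.46 and 2.03 TPM in control, 1.26, 1.96 and 0.85 TPM with LPS and 1.00, 1.43 and 0.25 TPM with extract. The second transcript's control and LPS values overlapped. The main transcript's share of the gene went from 69.7% in control to 40.9% with LPS and 39.0% with extract. Across the 12 genes the main transcript's share moved by at least 10 points from control in LPS or extract cells in 5, those of rank 13, 19, 23, 37 and 43. The median of the larger move was 7.73 points, against 4.62 points over the 4572 linked genes with 2 or more main transcripts, of which 20.6% moved by at least 10 points. These moves come from the same contrasts as the rule and carry no test. Rank 43 averaged 0.51 TPM with LPS and 0.35 TPM with extract, where its main transcript had 0.0 TPM in every library. For rank 37, the main transcript had 1.91, 0.52 and 0.77 TPM in extract libraries and the second 0.32, 2.14 and 1.73 TPM. At such levels shares are uncertain, and how far low TPM enlarged the moves was not tested.

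**Figure D5:**
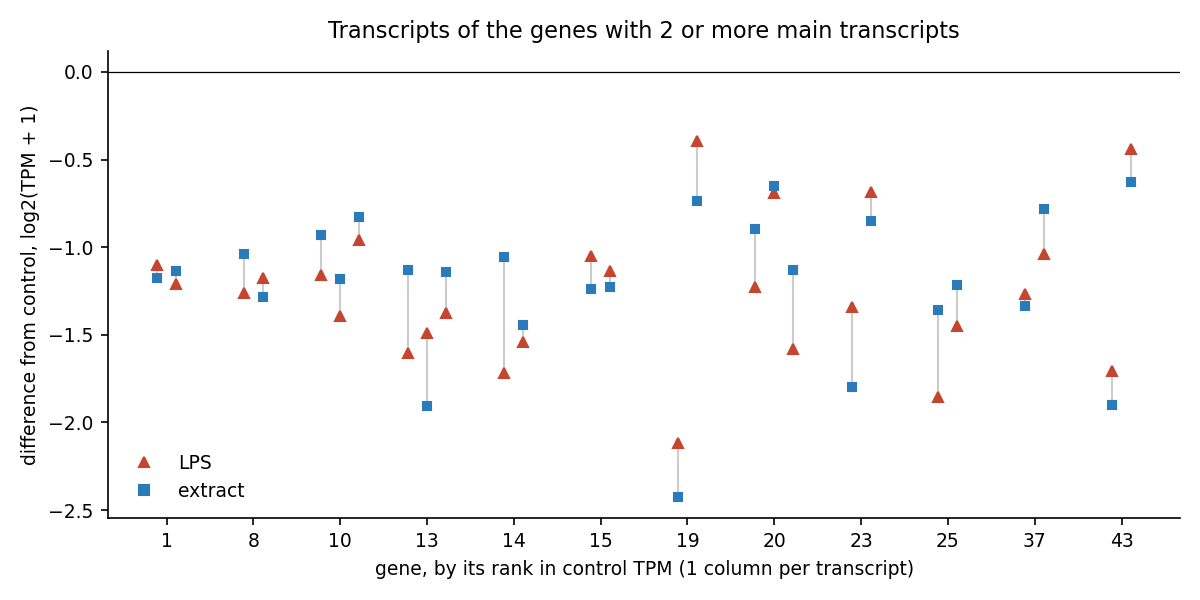
Difference from control on the log2(TPM + 1) scale (vertical axis) for the 27 main transcripts of 12 genes, grouped by the gene's rank in control TPM (horizontal axis), with 1 column per transcript, triangles for LPS and squares for extract. All points lie below 0, and the transcripts of rank 19 and rank 43 lie farthest apart within a gene. The share that defines main transcripts is taken over all 9 libraries and favours those high in control, so transcripts that rose could be left out.

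Applied to transcripts, the rule picked 89 of 19383 transcripts averaging 1 TPM or more (0.459%). Of these, 53 belonged to the 46 genes, and each of the 46 genes had at least 1. In the 24 genes with a single transcript above 0 TPM, its values are the gene's own, so it met the rule by the choice. The other 36 of the 89 belonged to 35 genes outside the set. For 8 of the 36, the whole gene differed from control by less than 0.3 in both comparisons, and for 8 it lay at or below -0.8 in both. The most abundant of the 36 had a mean of 183 TPM in control, 72.8 TPM with LPS and 52.8 TPM with extract, while its gene stood at 318, 413 and 285 TPM. Another stood at 25.2, 4.05 and 8.57 TPM in the same order, while its gene stood at 56.6, 49.9 and 52.2 TPM.

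The count of 46 depended on the low end of the scale: it was 12 with a pseudocount of 5 TPM in place of 1, of which 11 were among the 46, and 61 with 0.1, of which 43 were. Rescaling the libraries by the median of ratios moved the median of all tested genes from -0.084 to 0.002 for LPS minus control and kept 41 of the 46 genes.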

How the data were processed

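RNA of HBZY-1 cells was extracted with TRIzol and sequenced with Illumina libraries, per the labels' protocols. The authors deposited TPM values for 30560 genes and for transcripts, rounded to 2 decimals, each library summing to 1000000. Per the submitters' processing notes the tools were fastp, HISAT2 2.1.0 and RSEM 1.3.3, with no settings. Build, annotation and strandedness: not given in the sources used here. TPM is relative, so a rise of abundant genes lowers all others. RSEM in general divides reads between near-identical copies by estimation, and an exact 0 may be a failed estimate.

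Columns were assigned by the code that opens each title. The differences are between group means of log2(TPM + 1). Background shares come from limma 3.58.1 in R 4.3.3 (9 libraries, a mean-variance trend, two-sided, Benjamini-Hochberg over 12192 genes), tested on simulated data, as was the rule. Transcripts were linked to 12191 of the tested genes where consecutive TPM values summed to the gene's within 0.006 TPM per rounded value. The shortest such run was taken. Where several runs of that length matched, the run lying between those of the neighbouring genes was kept. For 1 gene this did not leave a single run, and it was not linked.

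The 46 genes, the lists and the measures were chosen with earlier results of these data known. The rule for named genes needed symbols. The GRCr8 table of 47357 genes held no Ensembl identifiers, so none of the 30560 deposited identifiers could be matched, those of the 46 genes included. The gene lists were therefore not analysed and no sequence is shown. Only the first identifier by control level and the first by mean difference were named. Other genes described were those at the ends of each measure, chosen after their values were seen. The p-values behind the calls measure only the spread between libraries.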

Additional observations from a re-analysis of the deposited data

How the results depend on the processing

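The number of genes lowered in both groups, 46, stayed within 1.5 times under a pseudocount of 0.1 (61), median-of-ratios scaling (41), quantile normalization (39), no filter (47) and leaving out any 1 library (42 to 60, with 42 to 46 of the 46 kept). It was 12 with a pseudocount of 5, 29 with a mean of at least 5 TPM, 78 with a threshold of -0.8 and 27 with a threshold of -1.2; these settings admit fewer or more genes by construction. The 41, 39, 29 and 27 genes were all among the 46. Genes called lower in LPS versus control numbered 3769, but 2264 after rescaling by the median of ratios and 2402 after quantile normalization, both of which centre the libraries. With the replicate block, 3553 genes were lower in LPS versus control, 3462 lower in extract versus control, and 4099 higher and 2973 lower in extract versus LPS, all within 1.5 times. Deviations of same-numbered libraries correlated between -0.055 and 0.095. For libraries of other groups with another number the range was -0.110 to 0.089, so the numbers were not taken to pair the libraries. As a hint the other way, 6 of 9 libraries deviated most like one of their own number. Some would do so without any pairing, and this count was not tested. The differences of the 2 named genes stayed below 0 under every alternative run, but these genes were chosen by the same values, so this is no support. For ENSRNOG00000010747 the LPS and extract differences were -1.05 and -1.12 with the median of ratios. With quantile normalization they were -1.10 and -1.14, against -1.15 and -1.16 on the deposited values. For ENSRNOG00000039902 the LPS difference was -2.34 with a pseudocount of 5, against -2.50. Read depth is unknown, so how far counting error limits the genes near 1 TPM was not examined.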
